A study of Homo sapiens with 16 samples.

Results

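The 31 genes described here encode the enzymes of cholesterol and fatty acid synthesis and the proteins that control them, listed by name as targets or parts of the sterol regulatory element-binding protein (SREBP) system. Of the 31, 30 were matched to 1 Ensembl identifier each among the 63677 gene identifiers of the count files. The identifier held for ACACA was not among them, so this gene was not analysed here. All 30 passed the filter on low counts, which left 20280 genes for testing. By role, 7 belong to the mevalonate pathway, 11 to the making of squalene and its conversion to cholesterol, 4 are regulators, 2 handle sterols and 6 belong to fatty acid synthesis.

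The cells were 2 human melanoma lines. UACC62P is the parental UACC-62 line, and UACC62R is its vemurafenib-resistant derivative, obtained by 2 months of selection in 2 uM vemurafenib, an inhibitor of the mutant kinase BRAF. The labels of the untreated libraries state that resistant cells stayed in that drug, while those of the treated libraries do not mention it. Each line was profiled by poly(A) RNA sequencing without treatment (0 h) and after 2, 6 or 24 h in 10 uM CCG-222740, an inhibitor of myocardin-related transcription factor (MRTF) signalling. Each of the 8 groups had 2 libraries, and no library labelled as vehicle was used here. The 0 h libraries carry other protocol text than the treated ones, so a difference in handling and the treatment cannot be told apart. The labels do not say that the 2 libraries of a group were separate cultures, so the p-values measure the spread between these libraries, which may be technical.

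The libraries held between 25932053 and 33342482 reads in genes. Replicate 1 of UACC62P at 2 h stood apart and was left out as the choice of libraries asked, leaving 15 libraries. It had 18.1 TMM-scaled counts-per-million (CPM) of SOX10, the melanocyte lineage factor, against 752 to 913 in the other UACC62P libraries and 19.9 to 30.1 in UACC62R. Its lipid genes stood on the same side, since 9 of the 10 members at least 2-fold apart between the lines were nearer to UACC62R. Over the 15 libraries the 6 melanocyte lineage markers summed to 1137 to 1450 CPM in UACC62P and to 69.2 to 80.4 CPM in UACC62R. Both lines are labelled melanoma. In UACC62R the pigment cell genes MLANA (0.162 to 0.494 CPM), TYR (0.0368 to 0.231 CPM), DCT (0 to 0.146 CPM) and PMEL (0.184 to 0.474 CPM) were near 0. In UACC62P MLANA was at 89.0 to 132 CPM, TYR at 124 to 150 CPM and DCT at 6.85 to 10.3 CPM. PMEL was low there too, at 1.26 to 3.40 CPM. The lineage factors MITF (41.0 to 53.5 CPM in UACC62R, against 132 to 248 in UACC62P) and SOX10 were lower in UACC62R but present. Markers of other cells summed to 36.4 to 51.4 CPM in UACC62P and 102 to 129 CPM in UACC62R. The largest was KRT18, at 23.8 to 36.3 CPM in UACC62P and 57.0 to 82.5 CPM in UACC62R. In the same order ACTA2 was at 8.58 to 10.2 and 19.4 to 21.9 CPM. KRT8 was at 1.66 to 3.89 and 7.26 to 10.9 CPM. PDGFRB was at 0.197 to 0.648 CPM in UACC62P and at 11.4 CPM or more in UACC62R. PTPRC leaned the other way with overlap, at 0.465 to 1.11 and 0.160 to 0.720 CPM. CD3E, CDH1 and PECAM1 were at 0 reads. The part of these markers in the line differences was not tested.

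Cells make cholesterol from acetyl-CoA through mevalonate, isoprenoids, squalene and lanosterol, and they make fatty acids from the same acetyl-CoA. SREBP-1 and SREBP-2 are held in the endoplasmic reticulum by SCAP and the INSIG proteins while sterol is plentiful. When sterol falls, SCAP carries them to the Golgi, where they are cut and released to enter the nucleus and switch on most of the genes in this list, among them SREBF1, SREBF2 and INSIG1 themselves. Tumour cells often run the pathway at a high rate to supply membranes.

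Promoter sequences are shown for the 5 genes with the largest change among those called at 24 h that carried at least 1 of the 3 searched motifs. All 5 were called in UACC62R, where TMEM97 fell and the others rose, and none of them was called in UACC62P. Each run is the 250 bases before the RefSeq start in build GRCh38.p14, 5′ to 3′ on the gene's strand. Capitals mark TCACNCCAC (a sterol regulatory element, bound by SREBPs), CCAAT (the NF-Y box) and GGGCGG (the GC box bound by Sp1), each searched on both strands.
SREBF1, chr17:17836987-17837236, minus strand: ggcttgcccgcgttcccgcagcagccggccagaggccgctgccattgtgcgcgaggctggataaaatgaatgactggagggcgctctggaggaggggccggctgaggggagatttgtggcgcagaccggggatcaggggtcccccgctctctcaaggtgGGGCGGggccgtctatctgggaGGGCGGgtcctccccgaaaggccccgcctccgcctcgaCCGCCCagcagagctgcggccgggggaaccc
CYP51A1, chr7:92134478-92134727, minus strand: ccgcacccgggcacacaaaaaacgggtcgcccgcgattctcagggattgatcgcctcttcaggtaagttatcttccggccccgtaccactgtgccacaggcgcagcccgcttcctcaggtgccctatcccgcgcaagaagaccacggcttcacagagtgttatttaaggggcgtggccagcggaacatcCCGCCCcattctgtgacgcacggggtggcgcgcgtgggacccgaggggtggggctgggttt
TMEM97, chr17:28318950-28319199, plus strand: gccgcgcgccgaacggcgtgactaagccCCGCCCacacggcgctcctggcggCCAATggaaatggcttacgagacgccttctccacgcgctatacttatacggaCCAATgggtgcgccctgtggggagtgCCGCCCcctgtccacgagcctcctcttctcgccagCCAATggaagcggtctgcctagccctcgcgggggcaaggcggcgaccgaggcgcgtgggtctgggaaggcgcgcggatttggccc
SREBF2, chr22:41832855-41833104, plus strand: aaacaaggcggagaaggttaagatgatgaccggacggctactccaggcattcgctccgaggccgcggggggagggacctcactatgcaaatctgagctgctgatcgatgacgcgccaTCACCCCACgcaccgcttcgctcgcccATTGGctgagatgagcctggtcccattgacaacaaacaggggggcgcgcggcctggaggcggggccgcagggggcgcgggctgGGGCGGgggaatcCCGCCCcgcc
MSMO1, chr4:165327419-165327668, plus strand: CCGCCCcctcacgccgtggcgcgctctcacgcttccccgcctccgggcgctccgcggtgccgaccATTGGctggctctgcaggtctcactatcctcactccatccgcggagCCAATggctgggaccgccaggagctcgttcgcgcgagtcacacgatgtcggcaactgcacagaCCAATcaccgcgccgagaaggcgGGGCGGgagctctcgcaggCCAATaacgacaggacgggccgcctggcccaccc

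Promoter entries were found for 27 of the 31 members; FDFT1, FASN, ACAT2 and SQLE had none. The sterol element was found in 1 of the 27, that of SREBF2, 125 to 133 bases before the start, which is 3.70% of the members against 0.875% of all 27305 promoters and 0.906% of the 12577 promoters of tested genes. CCAAT was found in 18 of the 27 (66.7%), against 33.0% of all promoters and 34.7% of those of tested genes. The GC box was found in 25 of the 27 (92.6%), against 42.3% and 63.9%. Of the 102 matches in member promoters 5 overlapped another match. Both genes of the sterol pathway shown carried a GC box, and MSMO1 and TMEM97 each carried several CCAAT boxes although their RNA moved in opposite directions at 24 h. These matches describe letters in a window and not binding.

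In cells without CCG-222740 most of the pathway was expressed at a lower level in the resistant line. The labels keep resistant cells at 0 h in vemurafenib, so line and that drug cannot be told apart in this comparison. Between the 0 h libraries 18 of the 30 genes were lower in UACC62R and 3 were higher, with 9 not called. The edgeR quasi-likelihood test with Benjamini-Hochberg adjustment over all genes was used throughout, at an adjusted p under 0.05. Over all 20280 genes 26.1% were called lower and 27.8% higher, so the members' lower calls (18 of 30) stood well above that background and their higher calls (3 of 30) below it. The members' median log2 difference was -0.49, while that of all genes was 0.02. Because these are bulk libraries, fewer cells that express a gene and less RNA per cell cannot be told apart. Values after ± for log2 differences are standard errors, and those for CPM are standard deviations (n = 2 libraries).

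Of the 7 mevalonate enzymes 6 were lower in UACC62R. MVK, the kinase that phosphorylates mevalonate, averaged 32.5 ± 1.11 CPM in UACC62P and 8.02 ± 1.11 CPM in UACC62R at 0 h, a log2 difference of -2.02 ± 0.14 (edgeR adjusted p = 1.69e-08). IDI1, which isomerises the C5 isoprenoid unit, was lower by -1.30 ± 0.14 on the log2 scale. HMGCS1, the synthase that makes HMG-CoA, was at 41.8 and 47.7 CPM in the UACC62P libraries and at 23.9 and 25.0 CPM in the UACC62R libraries at 0 h. The HMGCS1 values of the lines did not overlap at any time, and the log2 difference at 0 h was -0.87 ± 0.17. ACAT2, which condenses acetyl-CoA, FDPS, which makes farnesyl diphosphate, and MVD, the decarboxylase, were lower by -0.53, -0.50 and -0.48. PMVK, which adds the next phosphate after MVK, was not called (-0.14 ± 0.12).

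In the sterol segment, from squalene synthesis to cholesterol, 6 of 11 genes were lower in UACC62R and none was called higher. DHCR7, which reduces 7-dehydrocholesterol to cholesterol, differed by -1.37 ± 0.10, and CYP51A1, the lanosterol demethylase, by -1.19 ± 0.21. FDFT1, the squalene synthase, and LSS, which closes the ring to lanosterol, differed by -0.93 ± 0.07 and -0.91 ± 0.11. NSDHL, part of the C4 demethylation complex, and SQLE, the squalene epoxidase, differed by -0.48 ± 0.09 and -0.39 ± 0.12. The remaining 5, TM7SF2 (-0.43 ± 0.59), MSMO1 (-0.34 ± 0.17), SC5D (-0.09 ± 0.13), EBP (0.06 ± 0.12) and HSD17B7 (0.09 ± 0.38), were not called. TM7SF2 and HSD17B7, both reductases of the late pathway, had few reads (as low as 6 and 29 in a library) and wide errors. MSMO1, the methyl oxidase of C4 demethylation, was called lower with the replicate number as a block.

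Among the regulators SREBF1, SREBF2 and INSIG1 were lower and SCAP was higher in UACC62R. SREBF1, which encodes SREBP-1, differed by -1.44 ± 0.18 (edgeR adjusted p = 8.63e-06), and SREBF2, which encodes SREBP-2, by -1.20 ± 0.14 (edgeR adjusted p = 4.52e-06). INSIG1, the retention protein, differed by -1.19 ± 0.20. SCAP, the escort of both SREBPs, went the other way, at 87.1 ± 6.24 CPM in UACC62P and 153 ± 10.8 CPM in UACC62R (log2 difference 0.81 ± 0.09, edgeR adjusted p = 1.72e-06). Of the sterol handling pair, STARD4, a carrier of cholesterol between membranes, was lower by -0.82 ± 0.16, and TMEM97, an endoplasmic reticulum protein tied to cholesterol transport, was not called (-0.13 ± 0.19).

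Of the 6 fatty acid enzymes tested, 2 were lower in UACC62R and 2 were higher. Over all genes 26.1% were called lower and 27.8% higher, so both counts were near the background. SCD, the desaturase that makes monounsaturated fatty acids, had the lowest log2 ratio of the 30 genes, at 276 ± 48.7 CPM in UACC62P and 59.3 ± 7.30 CPM in UACC62R (log2 difference -2.22 ± 0.14, edgeR adjusted p = 7.67e-09). FASN, the fatty acid synthase, was lower by -1.26 ± 0.12. In contrast FADS2, the delta-6 desaturase of polyunsaturated fatty acids, was higher by 1.15 ± 0.12, and ELOVL6, an elongase of saturated chains, was higher by 0.57 ± 0.11. ACLY, which supplies cytosolic acetyl-CoA from citrate, and FADS1, the delta-5 desaturase, differed by -0.00 ± 0.06 and 0.07 ± 0.10 and were not called.

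**Figure D1:**
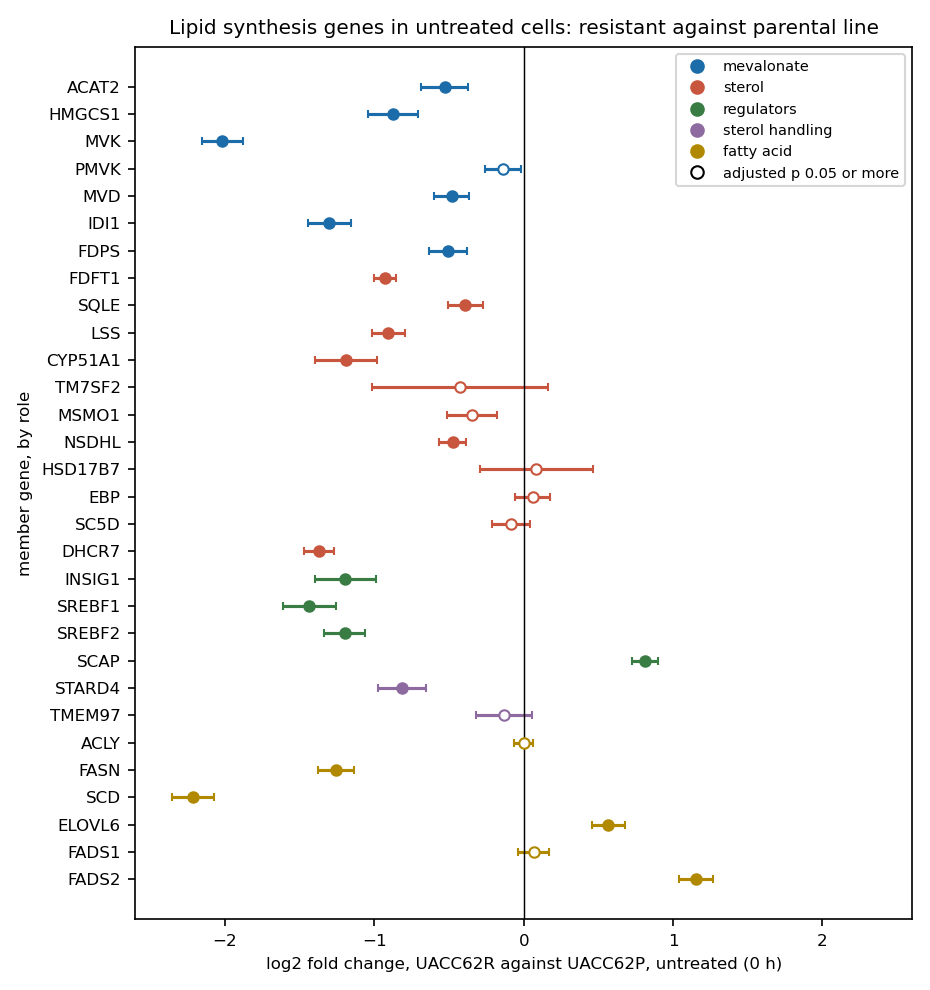
Log2 fold change of UACC62R over UACC62P at 0 h (x axis) for 30 lipid synthesis genes (y axis), with 2 libraries per line. Points are edgeR estimates with bars of 1 standard error, colours give the role, and open points have an adjusted p of 0.05 or more; 18 filled points lie left of 0 and 3 right of it.

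The direction held over the time course for most of these genes. In 16 members every one of the 8 UACC62R libraries was below every one of the 7 UACC62P libraries, against 21.3% of all genes tested. In 3 members, SCAP, ELOVL6 and FADS2, all UACC62R libraries were above, against 22.3% of all genes. The other 11 overlapped, among them SQLE, whose UACC62R libraries at 24 h reached the range of UACC62P. CYP51A1 overlapped only through the UACC62P library at 2 h (6.47 CPM), which lay below the UACC62R libraries at 24 h (6.66 and 8.86 CPM). The ratio of UACC62R to UACC62P mean CPM moved from 0.370 at 0 h to 0.687 at 24 h for SREBF1, from 0.436 to 0.593 for SREBF2 and from 0.763 to 0.945 for SQLE. For SCD it was 0.215 and 0.243, and for FASN 0.418 and 0.358.

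At 2 h of CCG-222740 no lipid synthesis gene was called in either line. In UACC62P, where 1 library stood for the 2 h group and was assumed to vary like the others, edgeR and DESeq2 each called 0 of 30, and 1 had an unadjusted edgeR p under 0.05. That gene was CYP51A1, at 6.47 CPM against 10.4 and 10.3 CPM at 0 h (log2 change -0.68 ± 0.26, edgeR adjusted p = 1.00). Of all genes tested, 0.0296% were called higher and 0.0148% lower. In UACC62R edgeR and DESeq2 also called 0 of 30, with 0 at an unadjusted p under 0.05, against 0.0493% of all genes called higher and 0.0247% lower.

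By 6 h the members were still uncalled. In UACC62P edgeR and DESeq2 called 0 of 30, 2 members had an unadjusted edgeR p under 0.05, and 0.848% of all genes were called higher and 0.671% lower. Those members were ELOVL6 (0.37 ± 0.11, edgeR adjusted p = 0.129) and INSIG1 (0.49 ± 0.20, edgeR adjusted p = 0.272). With the replicate number as a block ELOVL6 was called higher in UACC62P (edgeR adjusted p = 0.0397), against 3.64% of all genes called higher in that fit. In UACC62R edgeR and DESeq2 called 0 of 30, with 1 member, again ELOVL6 (0.33 ± 0.11, edgeR adjusted p = 0.303), at an unadjusted p under 0.05. In that comparison 0.38% of all genes were called higher and 0.286% lower.

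INSIG1, among the most sterol-responsive SREBP targets, varied between UACC62P libraries. It was at 58.8 and 51.2 CPM at 0 h, 74.3 CPM at 2 h, 56.1 and 98.6 CPM at 6 h, and 62.3 and 76.3 CPM at 24 h. The 6 h replicates span nearly the whole range of the line, and the 24 h change was 0.33 ± 0.20. In UACC62R it was at 23.4 and 24.6 CPM at 0 h, 29.4 and 25.6 CPM at 2 h, 28.0 and 24.5 CPM at 6 h, and 26.3 and 31.3 CPM at 24 h (24 h change 0.26 ± 0.20). All UACC62R libraries lay below all UACC62P libraries, and neither line's INSIG1 passed the test at any time in the fit of 15 libraries.

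HMGCS1, at the head of the mevalonate pathway, did not pass the test at any time in the fit of 15 libraries either. In UACC62P it was at 43.9 CPM at 2 h, 40.6 and 52.2 CPM at 6 h, and 45.1 and 64.0 CPM at 24 h. In UACC62R it was at 21.8 and 23.2 CPM at 2 h, 22.7 and 21.6 CPM at 6 h, and 23.7 and 31.2 CPM at 24 h. Replicate 2 at 24 h was the highest library of its line in both lines, and replicate 1 lay within the range of earlier times.

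At 24 h a subset of the pathway was higher than at 0 h in the resistant line. The labels mention vemurafenib for its 0 h libraries and not for its treated ones. A change in that drug and CCG-222740 thus cannot be told apart in UACC62R against 0 h, nor in the difference of response between the lines. In UACC62R 9 of the 30 genes rose and 1 fell against 0 h, against 6.48% of all genes called higher and 8.23% called lower. Over the 30 genes the log2 change was above 0 in 25 and below 0 in 5, with a median of 0.20, where the median of all genes was 0.01. In UACC62P 1 of 30 rose (FADS2) and none fell, against 2.19% of all genes called higher and 1.65% lower. There the change was above 0 in 21 and below 0 in 9, with a median of 0.18 against 0.00 for all genes. Of the 29 members not called in UACC62P, 7 had an unadjusted p under 0.05. With the replicate number as a block UACC62R had 12 members higher and 2 lower and UACC62P had 5 higher and 0 lower, against 11% and 13.2% of all genes in UACC62R and 6.04% and 6.04% in UACC62P.

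The UACC62R count depended on single libraries. Without replicate 2 of UACC62R at 0 h it was 2 (SQLE and FADS2, the members called in each fit that left out 1 library), and with the library that stood apart put back it was 0, when 0.884% of all genes were called higher and 0.894% lower. The UACC62P count was 0 without its replicate 2 at 0 h or either of its 24 h libraries. It was 2 without UACC62P replicate 2 at 2 h, either UACC62P library at 6 h or UACC62R replicate 1 at 0 h, and 3 without either UACC62R library at 24 h.

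**Figure D2:**
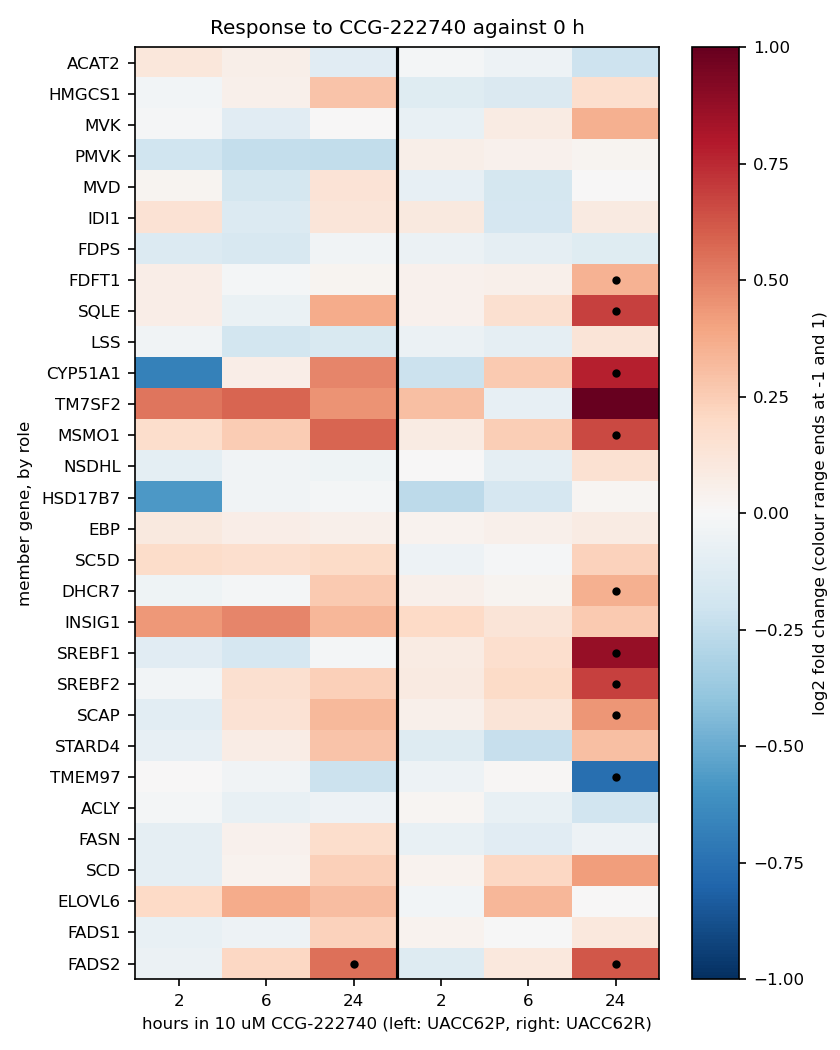
Log2 fold change of 30 lipid synthesis genes (rows, by role) against 0 h after 2, 6 and 24 h in 10 uM CCG-222740 (columns), UACC62P left of the line and UACC62R right, with 2 libraries per group except 1 for UACC62P at 2 h. Dots mark an adjusted p under 0.05, and the colour scale ends at -1 and 1, so TM7SF2 in UACC62R at 24 h (1.68) is drawn at its end; the dots lie in the 24 h columns alone, 10 in UACC62R and 1 in UACC62P.

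In the sterol segment 5 of 11 genes rose in UACC62R at 24 h, none fell, and the change was above 0 in all 11. SQLE, the squalene epoxidase and a rate-controlling step of the pathway, was at 37.3 and 44 CPM at 0 h, 38.1 and 45.6 CPM at 2 h, 43.3 and 47.5 CPM at 6 h, and 61.5 and 69.0 CPM at 24 h in UACC62R. Both 24 h libraries were above all earlier ones of the line, and the log2 change was 0.68 ± 0.12 (edgeR adjusted p = 0.00141). In UACC62P SQLE was at 55.8 and 50.8 CPM at 0 h, 55.9 CPM at 2 h, 49.5 and 52.6 CPM at 6 h, and 63.5 and 74.6 CPM at 24 h. The UACC62P 24 h libraries were also above all earlier ones, with a change of 0.37 ± 0.12 that missed the threshold (edgeR adjusted p = 0.0967) and passed it with DESeq2 (adjusted p = 0.0400) and with the replicate block.

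CYP51A1, the lanosterol demethylase, was at 5.11 and 3.98 CPM at 0 h, 3.43 and 4.41 CPM at 2 h, 6.22 and 4.64 CPM at 6 h, and 6.66 and 8.86 CPM at 24 h in UACC62R. The 24 h libraries were the highest of the line, though 1 of the 6 h libraries came close, and the log2 change was 0.78 ± 0.21 (edgeR adjusted p = 0.0222). In UACC62P CYP51A1 was at 10.4 and 10.3 CPM at 0 h, 6.47 CPM at 2 h, 12.3 and 9.27 CPM at 6 h, and 13.8 and 15.1 CPM at 24 h, a change of 0.48 ± 0.19 (edgeR adjusted p = 0.200). Every UACC62P library except that at 2 h was above every UACC62R library.

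MSMO1, the methyl oxidase of the C4 demethylation complex, was at 17.7 and 18.3 CPM at 0 h, 20.3 and 17.9 CPM at 2 h, 20.4 and 22.3 CPM at 6 h, and 24.6 and 32.3 CPM at 24 h in UACC62R. The UACC62R 24 h libraries were above all earlier ones and the change was 0.66 ± 0.17 (edgeR adjusted p = 0.0154). In UACC62P MSMO1 was at 22.6 and 23.1 CPM at 0 h, 25.8 CPM at 2 h, 22.0 and 32.6 CPM at 6 h, and 31.8 and 36.7 CPM at 24 h. Replicate 2 at 6 h was already within the UACC62P 24 h range, and the 24 h change of 0.58 ± 0.16 missed the threshold (edgeR adjusted p = 0.0680) and passed it with DESeq2 (adjusted p = 0.0187) and with the replicate block.

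DHCR7 and FDFT1 were the other sterol genes that rose in UACC62R at 24 h, by 0.35 ± 0.10 (edgeR adjusted p = 0.0249) and 0.34 ± 0.07 (edgeR adjusted p = 0.00662). In UACC62P the values were 0.26 ± 0.09 for DHCR7 (called higher with the replicate block) and 0.03 ± 0.07 for FDFT1. TM7SF2 had the largest point estimate in UACC62R, 1.68 ± 0.54, at 0.725 and 0.407 CPM at 0 h and 2.08 and 1.57 CPM at 24 h. That TM7SF2 value missed the threshold (edgeR adjusted p = 0.0530) and passed it with the replicate block, and its exons overlap those of VPS51 on the same strand in a later annotation. LSS, NSDHL, EBP, SC5D and HSD17B7 lay between 0.02 and 0.23 in UACC62R without a call; SC5D, the C5 desaturase, was called higher with the replicate block.

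The calls of CYP51A1, MSMO1 and DHCR7 in UACC62R were lost in some fits without 1 library: replicate 2 at 0 h or replicate 2 at 24 h for each of them, replicate 1 at 0 h for MSMO1 and replicate 1 at 24 h for DHCR7. That of CYP51A1 was also lost when UACC62R was fitted alone (edgeR adjusted p = 0.0543). That of FDFT1 was lost without replicate 2 at 0 h.

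The mevalonate segment upstream had 0 of 7 genes called in either line at 24 h with edgeR and with DESeq2, and 1 of 7 in UACC62R (MVK, 0.36 ± 0.14, edgeR adjusted p = 0.115) and 0 of 7 in UACC62P had an unadjusted p under 0.05. Its median change was 0.03 in UACC62R and 0.00 in UACC62P, where the sterol segment had 0.34 and 0.19. IDI1 (0.09 ± 0.15), MVD (0.01 ± 0.12), PMVK (0.03 ± 0.12), FDPS (-0.12 ± 0.13) and ACAT2 (-0.21 ± 0.16) had no call in UACC62R. The difference between the segments was not tested.

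SREBF1, SREBF2 and SCAP rose in UACC62R at 24 h, and none of the 4 was called in UACC62P. SREBF1 was at 82.7 and 61.1 CPM at 0 h, 82.9 and 69.2 CPM at 2 h, 92.2 and 69.6 CPM at 6 h, and 149 and 115 CPM at 24 h in UACC62R. Both 24 h libraries exceeded all earlier ones of the line, and the change was 0.87 ± 0.18 (edgeR adjusted p = 0.00433). In UACC62P SREBF1 was at 219 and 171 CPM at 0 h, 180 CPM at 2 h, 188 and 159 CPM at 6 h, and 197 and 187 CPM at 24 h. Those UACC62P values overlapped at all times (24 h change -0.02 ± 0.17).

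SREBF2 was at 101 and 78.0 CPM at 0 h, 103 and 86.9 CPM at 2 h, 112 and 92.2 CPM at 6 h, and 143 and 144 CPM at 24 h in UACC62R. The 24 h libraries were close together and above the rest, with a change of 0.68 ± 0.14 (edgeR adjusted p = 0.00439). In UACC62P SREBF2 was at 231 and 180 CPM at 0 h, 202 CPM at 2 h, 228 and 233 CPM at 6 h, and 254 and 231 CPM at 24 h. In UACC62P the 24 h libraries overlapped those at 6 h, and the lower of them was level with the higher 0 h library (both 231 CPM). The 24 h change of 0.24 ± 0.14 was not called. Its promoter, shown above, was the only one of the 27 with a match to the sterol element.

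SCAP was at 161 and 145 CPM at 0 h, 159 and 159 CPM at 2 h, 174 and 160 CPM at 6 h, and 215 and 200 CPM at 24 h in UACC62R, a change of 0.44 ± 0.08 (edgeR adjusted p = 0.00324). In UACC62P it was at 91.6 and 82.7 CPM at 0 h, 80.9 CPM at 2 h, 102 and 90.8 CPM at 6 h, and 110 and 108 CPM at 24 h, a change of 0.32 ± 0.09 (edgeR adjusted p = 0.0535). In both lines the 24 h libraries were above all others, and the UACC62P change was called with DESeq2 (adjusted p = 0.0240) and with the replicate block. The UACC62R calls of SREBF2 and SCAP were lost without replicate 2 at 0 h, and that of SREBF1 was lost without it or without replicate 1 at 24 h.

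TMEM97 was the single member that fell. In UACC62R it was at 40.4 and 48.5 CPM at 0 h, 37.2 and 48.7 CPM at 2 h, 41.5 and 48.1 CPM at 6 h, and 19.4 and 33.3 CPM at 24 h. The 24 h libraries were the lowest of the line but far from each other, and the change was -0.75 ± 0.19 (edgeR adjusted p = 0.0166), lost without replicate 2 at 0 h or replicate 1 at 24 h and when UACC62R was fitted alone (edgeR adjusted p = 0.0601). In UACC62P TMEM97 was at 48.3 and 49.2 CPM at 0 h, 49.0 CPM at 2 h, 45.8 and 49.5 CPM at 6 h, and 41.3 and 42.5 CPM at 24 h. The UACC62P 24 h libraries were also the lowest of that line, and the change there, -0.22 ± 0.19, was not called. STARD4 stood at 0.30 ± 0.16 in UACC62R and 0.29 ± 0.16 in UACC62P at 24 h, not called.

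**Figure D3:**
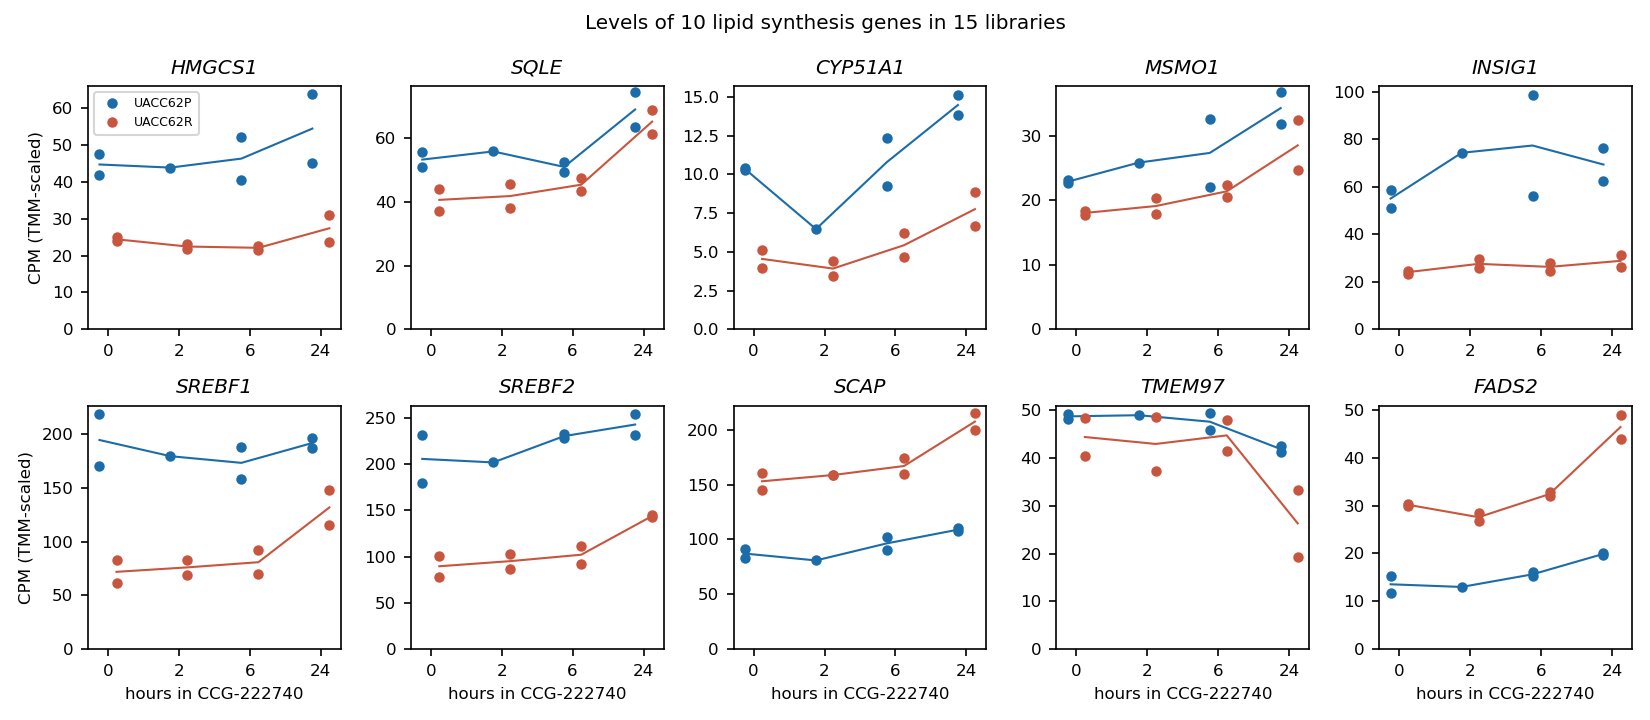
TMM-scaled CPM (y axis, each from 0) of 10 lipid synthesis genes in 15 libraries at 0, 2, 6 and 24 h in 10 uM CCG-222740 (x axis, times evenly spaced). Each point is 1 library and lines join the group means; SQLE and SREBF1 in UACC62R are highest at 24 h, TMEM97 lowest, and INSIG1 and HMGCS1 stay apart between the lines.

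Among the fatty acid enzymes FADS2 alone was called at 24 h against 0 h, and it rose in both lines. In UACC62R it was at 30.4 and 30.0 CPM at 0 h, 26.7 and 28.4 CPM at 2 h, 32.1 and 32.7 CPM at 6 h, and 43.8 and 49.0 CPM at 24 h, a change of 0.62 ± 0.11 (edgeR adjusted p = 0.00173). In UACC62P it was at 15.3 and 11.7 CPM at 0 h, 13.0 CPM at 2 h, 15.2 and 16 CPM at 6 h, and 20.1 and 19.7 CPM at 24 h, a change of 0.55 ± 0.12 (edgeR adjusted p = 0.0178). In each line the 24 h libraries were above all the others. The UACC62P call was lost without replicate 2 at 0 h or without either 24 h library. FADS2 exons overlap those of FEN1 and FADS1 in a later annotation, and FADS1 itself was not called (0.11 ± 0.10 in UACC62R, 0.23 ± 0.10 in UACC62P).

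The main enzymes of saturated and monounsaturated fatty acids were not called with edgeR. FASN stood at -0.05 ± 0.12 in UACC62R and 0.17 ± 0.12 in UACC62P at 24 h. SCD stood at 0.42 ± 0.14 (edgeR adjusted p = 0.0570) and 0.24 ± 0.13, and ACLY at -0.19 ± 0.06 (edgeR adjusted p = 0.0563) and -0.05 ± 0.06. In UACC62R both SCD and ACLY passed the threshold with DESeq2 (adjusted p = 0.0259 and 0.0169) and with the replicate block, SCD higher and ACLY lower. ELOVL6 was back at 0.00 ± 0.11 in UACC62R at 24 h, after 0.33 ± 0.11 at 6 h, and stood at 0.31 ± 0.11 in UACC62P.

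**Figure D4:**
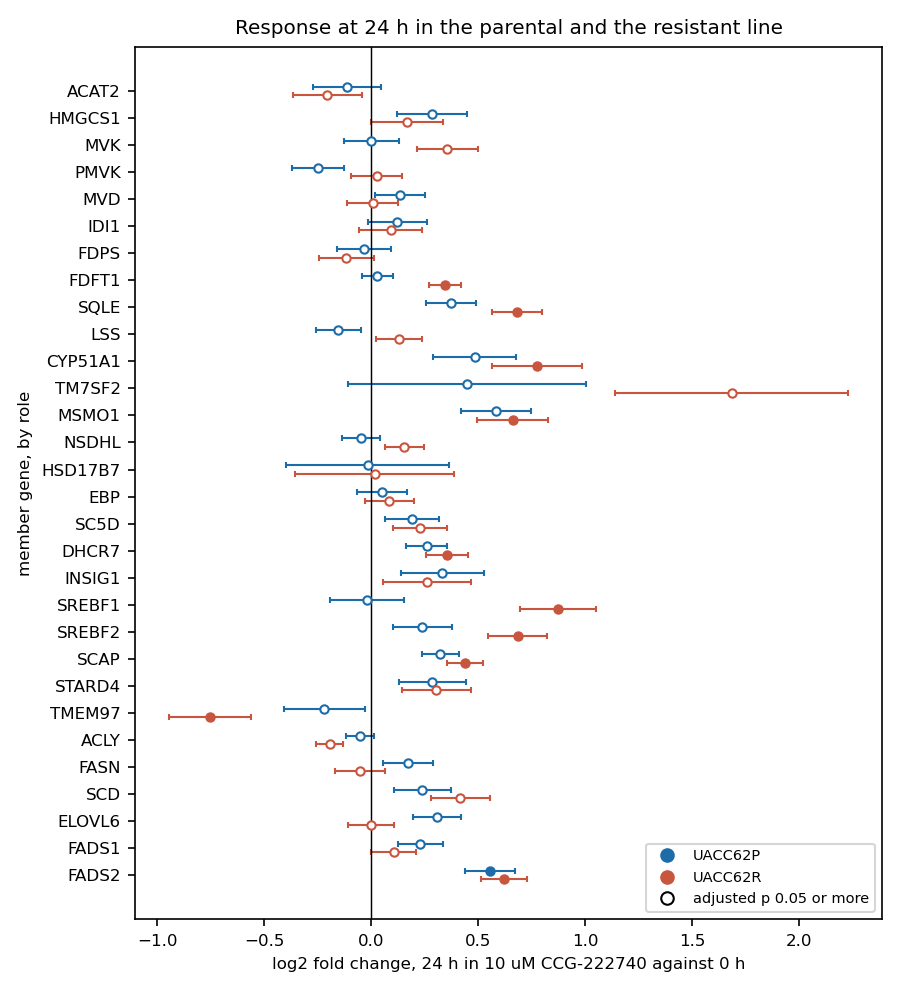
Log2 fold change at 24 h in 10 uM CCG-222740 against 0 h (x axis) for 30 lipid synthesis genes (y axis, by role) in UACC62P and UACC62R, 2 libraries per group. Bars are 1 standard error and open points have an adjusted p of 0.05 or more; SREBF1 is at 0.87 in UACC62R and -0.02 in UACC62P, while FADS2 is filled in both lines.

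Most of these genes were also called between 6 and 24 h. Against 6 h, 8 members rose and 1 fell in UACC62R at 24 h, against 5.18% of all genes called higher and 7.39% lower. SREBF1 (0.70 ± 0.18), STARD4 (0.53 ± 0.16), SQLE (0.52 ± 0.12) and FADS2 (0.52 ± 0.11) led, followed by SREBF2 (0.50 ± 0.14), DHCR7 (0.32 ± 0.10), SCAP (0.31 ± 0.08) and FDFT1 (0.29 ± 0.07). TMEM97 fell by 0.76 on the log2 scale. This count was 2 without replicate 1 of UACC62R at 24 h, 3 without replicate 2 at 6 h, 5 without replicate 2 at 24 h and 0 with all 16 libraries, and with the replicate block it was 12 higher and 2 lower (9.94% and 12.2% of all genes). In UACC62P edgeR called 0 of 30 between 6 and 24 h and DESeq2 called 1 (SQLE, 0.44, adjusted p = 0.0227). There 6 members had an unadjusted edgeR p under 0.05, and 0.345% of all genes were called higher and 0.39% lower. SQLE was also called higher in UACC62P with the replicate block, in which 2.34% of all genes were. The comparisons against 0 h and 6 h share the 24 h libraries.

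Whether the lines responded differently was tested as the difference of their changes. At 6 h edgeR and DESeq2 called 0 of 30 members, 0 had an unadjusted p under 0.05, and 0% of all genes were called higher and 0.00493% lower. At 24 h edgeR called 0 of 30 and DESeq2 called 1, with 3 members at an unadjusted edgeR p under 0.05, and 0.242% of all genes were called higher in UACC62R and 0.321% lower. Those 3 were SREBF1 (0.90 ± 0.25, edgeR adjusted p = 0.141; 0.0200 with DESeq2), FDFT1 (0.32 ± 0.10, edgeR adjusted p = 0.242) and SREBF2 (0.44 ± 0.19, edgeR adjusted p = 0.423). With the replicate block SREBF1 (0.88 ± 0.11, edgeR adjusted p = 0.000119) and SREBF2 (0.45 ± 0.12, edgeR adjusted p = 0.0464) were called, against 1.77% of all genes called higher. The sterol enzymes that rose in UACC62R differed from UACC62P by 0.31 ± 0.16 (SQLE), 0.29 ± 0.28 (CYP51A1), 0.09 ± 0.14 (DHCR7) and 0.08 ± 0.23 (MSMO1), and FADS2 by 0.07 ± 0.16. TMEM97 differed by -0.53 ± 0.27, called lower without replicate 2 of UACC62R at 24 h. For these genes a call in 1 line and none in the other does not show that the lines differ.

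Other genes of sterol and lipid metabolism were counted at 24 h by lists. Of 8 further genes of SREBP control, the parental line had 3 higher and 1 lower and the resistant line had 4 higher and 1 lower, against 2.19% of all genes higher and 1.65% lower in UACC62P and 6.48% and 8.23% in UACC62R. INSIG2, the second INSIG retention protein, was higher by 0.84 ± 0.19 in UACC62P and by 0.69 ± 0.18 in UACC62R. In UACC62P it was already called at 6 h (0.96 ± 0.19). ERLIN2, an endoplasmic reticulum membrane protein, fell in both lines, with -0.92 ± 0.09 and -0.88 ± 0.09, and it was called lower at 6 h in both (-0.65 ± 0.09 and -0.68 ± 0.09). MBTPS1, the Golgi protease that makes the first cut in SREBPs, rose by 0.27 ± 0.07 in UACC62P and 0.46 ± 0.07 in UACC62R.

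Of 9 tested genes of the liver X receptor (LXR) arm and of cholesterol export or storage, 1 rose in UACC62P and 2 in UACC62R, against 2.19% and 6.48% of all genes called higher. NPC1, which moves cholesterol out of lysosomes, had changes of 0.63 ± 0.09 in UACC62P and 0.38 ± 0.09 in UACC62R, called in both. LIPA, the lysosomal lipase that frees cholesterol from its esters, rose by 0.55 ± 0.08 in UACC62R. In the prenyl and dolichol branch of 11 genes none was called in UACC62P (edgeR, 3 at an unadjusted p under 0.05) and 1 fell in UACC62R, PDSS1 of ubiquinone side chain synthesis (-0.72 ± 0.21). That share is close to the 8.23% of all genes called lower in UACC62R.

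Of 14 genes that supply acetyl-CoA, NADPH or build glycerolipids, the parental line had 2 higher and 1 lower, and the resistant line had 6 higher and 1 lower. The shares of all genes were 2.19% higher and 1.65% lower in the parental line and 6.48% and 8.23% in the resistant line, so 1 lower of 14 in UACC62R is near the background. ACSL3, an acyl-CoA synthetase of lipid droplets, rose by 0.44 ± 0.07 in UACC62P and 0.65 ± 0.07 in UACC62R. ME1, the NADPH-making malic enzyme, rose by 0.42 ± 0.07 in UACC62P. AGPAT2, an acyltransferase of phosphatidic acid synthesis, rose by 0.54 ± 0.11 in UACC62R. DGAT2, which makes triglycerides, fell in both lines, with -1.02 ± 0.21 and -1.09 ± 0.20.

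Of 9 fatty acid oxidation genes 1 rose in UACC62P and 3 rose in UACC62R, against 2.19% and 6.48% of all genes called higher. ACADVL, the very long chain acyl-CoA dehydrogenase, rose by 0.52 ± 0.07 and 0.30 ± 0.07. In UACC62R CPT2, which reforms acyl-CoA inside mitochondria, rose by 0.49 ± 0.10, and PDK4, the pyruvate dehydrogenase kinase, was called lower at 6 h (-1.21 ± 0.21) and higher at 24 h (0.87 ± 0.20).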

How the data were processed

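Poly(A) RNA of 2 melanoma lines was sequenced in 16 libraries. The deposited files hold raw counts of reads per gene that the authors made; the submitters' processing notes name bcl2fastq 2.19.0, FastQC 0.11.5, Trimmomatic 0.33, HISAT2 2.1.0, HTSeq 0.6.1 and the build hg19. The library kit marks strand per the labels' protocols, while no source used here says whether counting used strand: members with overlapping or antisense genes (ACAT2, MVK, FADS1, FADS2, TM7SF2, TMEM97 and others) are uncertain. The 5 summary lines of each file stayed out of library sizes; reads not aligned were 6.12% to 17.8% and reads aligned to more than 1 place 18.6% to 22.0%.

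One fit of 15 libraries with a coefficient per group was made with edgeR 4.0.16 (limma 3.58.1, R 4.3.3): TMM scaling, filterByExpr, glmQLFit and glmQLFTest, Benjamini-Hochberg adjustment over 20280 genes and a call at an adjusted p under 0.05. The common dispersion was 0.00985 and there were 7 residual degrees of freedom. Standard errors were derived from each contrast as log2 fold change over the root of its F statistic. CPM use TMM-scaled library sizes. Symbols were looked up by identifier, and 52181 of 63677 identifiers had one. Replicates of a group differed beyond counting noise (chi-square per degree of freedom 9.37 to 19.2 in 7 pairs).

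Same-numbered libraries deviated together: the correlation of deviations from group means was 0.174 to 0.718 in 21 pairs of groups, over the 8273 genes whose mean log2 CPM was above 4. This pairing was read from the data, not from the labels. The main fit has no replicate term and so ignores the pairing, which enters only in the replicate block. Alternatives were the replicate block, DESeq2 1.42.0, library size scaling, no filter, all 16 libraries, each line alone and leaving out each library. The members and lists were chosen with earlier results of these data known. Library values are given for the members called at 6 or 24 h with the largest change in each role, up to 3 a role, and for HMGCS1, INSIG1, SREBF1 and SREBF2; other lists name up to 3 called genes per line, and MBTPS1 was added after its values were seen. One gene the rule would name is not reported here. Promoters are RefSeq's, in a build other than that of the counts, as are the exon overlaps, so no coordinates were joined to the files.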

Additional observations from a re-analysis of the deposited data

How the results depend on the processing

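No call of a member reversed under any alternative run: of the results for single genes 759 kept their side of the threshold and 81 no longer passed it. The counts of members called at 2 h in both lines, at 6 h in UACC62R and in the difference of response at 6 h were 0 in each setting run. At 24 h in UACC62P the count of 1 was 4 with DESeq2, 2 with library size scaling, 4 with no filter on low counts, 3 with each line fitted alone, 5 with the replicate block and 0 with all 16 libraries, and 0 to 3 when single libraries were left out. At 6 h in UACC62P the count of 0 was 1 with no filter and 1 with the replicate block, and 0 to 1 when libraries were left out. Between 6 and 24 h in UACC62P the count of 0 was 1 each with DESeq2, no filter, the line alone and the replicate block, and 0 in each fit without 1 library. At 24 h in UACC62R the count of 10 was 0 with all 16 libraries and 2 to 12 when libraries were left out. Between 6 and 24 h in UACC62R the count of 9 was 0 with all 16 libraries, 4 with the line alone, 14 with the replicate block and 2 to 10 when libraries were left out. Between the lines at 0 h the count of 21 ranged from 19 to 22 without 1 library and was 17 with all 16. For the difference of response at 24 h the count of 0 was 1 with DESeq2, 2 with no filter, 2 with the replicate block and 0 to 1 when libraries were left out. The cause of these shifts was not tested. The replicate block changed no other call than those given above: besides them it added NSDHL, MSMO1, SC5D and TM7SF2 higher and ELOVL6 lower in UACC62R between 6 and 24 h. Library size scaling moved the median log2 difference of all genes between the lines from 0.02 to 0.10. Depth limited TM7SF2, with 6 reads in its lowest library, and HSD17B7, with 29.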
